A study of Mus musculus with 30 samples.

Results

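The complement and coagulation genes are 41 genes chosen by symbol, whose products form the complement cascade, the clotting cascade, the inhibitors of both and the fibrinolytic system of blood plasma. Array probes were assigned to them through the RefSeq transcript named in the scanner files. All 41 were among the 12188 named genes that passed the filter on dim probes, through 53 tested probes, and 11 of the genes had more than 1 tested probe. Their RNA was measured in the liver of female C57BL/6 mice, a wild-type inbred strain, bought at 5 to 6 weeks of age. The exposed group was 14 mice that had received 0.162 mg of Printex 90, a carbon black of nanometre-sized particles, by instillation into the trachea. The dose was given in 40 µl of saline containing 10% lavage fluid from other mice of the strain, followed by 150 µl of air. The control group was 16 mice whose treatment the labels give only as none, so it is not stated whether they received the saline mixture. The time between instillation and sampling, and the age at sampling, are not given in the labels, while the design text names groups of 6 mice and 30 arrays were analysed here. Each array held the liver RNA of 1 mouse labelled with Cy5 and the same universal mouse reference RNA labelled with Cy3. Values are log2 ratios of liver over reference unless another scale is named, and a difference is exposed minus control.

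Within each group the animals were numbered in 3 consecutive blocks, called runs here, separated by gaps of more than 10. What sets 1 run apart from another is not stated. Control run 1 held animals 547 to 552 (n = 6), control run 2 held 570 to 575 (n = 5) and control run 3 held 595 to 600 (n = 5). Exposed run 1 held animals 176 to 180 (n = 4), exposed run 2 held 193 to 197 (n = 5) and exposed run 3 held 212 to 216 (n = 5). Median signals per array were 104 to 196 for Cy5 and 43 to 113 for Cy3. Precision is limited by how many arrays there are. The tissue label was checked against hepatocyte markers, of which 10 of 12 were tested. Their mean log2 ratio lay between 5.04 and 6.46 in control animals and between 4.98 and 6.23 in exposed animals, far above the reference in each of the 30. In bulk liver, fewer cells of a type and less RNA per cell cannot be told apart.

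Most complement and clotting proteins of plasma are made by hepatocytes and secreted as inactive precursors. In complement, lectins or antibodies on a surface activate proteases that split C3, the opsonin at the centre of the cascade, and the terminal components then assemble into a pore. In clotting, proteases that carry vitamin K dependent modifications generate thrombin, which turns fibrinogen into fibrin, and plasmin later dissolves it. Several of these genes, among them those of fibrinogen, C3 and factor B, belong to the acute phase response of the liver and are known targets of interleukin 6 and interleukin 1 signalling through STAT3, NF-kB and C/EBP factors. HNF4 factors maintain the expression of many of them in hepatocytes.

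Promoter sequences were available for 31 of the 41 genes from RefSeq, on the mouse build GRCm38.p6, as windows of 300 bases. The 200 bases before the start of 5 genes are shown 5′ to 3′ on the gene's own strand. Fga, Fgb and Fgg encode the 3 chains of fibrinogen and lie together on chromosome 3. Hc, the gene of complement C5, stands for the terminal components. Tfpi encodes tissue factor pathway inhibitor, a product of endothelium more than of hepatocytes, and it was the only one of the 41 with a mean ratio below 0. Capitals mark matches to the C/EBP pattern TTGCNNAA or to the STAT pattern TTCNNNGAA, on either strand. The windows are chr3:83025953-83026152 on the plus strand for Fga, chr3:83049864-83050063 on the minus strand for Fgb, chr3:83007524-83007723 on the plus strand for Fgg, chr2:35061413-35061612 on the minus strand for Hc and chr2:84476760-84476959 on the minus strand for the first of the Tfpi starts.
Fga: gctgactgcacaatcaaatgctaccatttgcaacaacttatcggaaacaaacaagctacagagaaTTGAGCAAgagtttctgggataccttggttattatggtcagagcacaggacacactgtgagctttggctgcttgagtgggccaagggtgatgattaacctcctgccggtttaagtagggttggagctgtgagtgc
Fgb: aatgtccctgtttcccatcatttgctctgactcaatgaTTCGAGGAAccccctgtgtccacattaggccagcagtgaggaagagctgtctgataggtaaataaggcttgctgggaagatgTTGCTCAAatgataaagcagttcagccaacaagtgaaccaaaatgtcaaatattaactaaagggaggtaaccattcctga
Fgg: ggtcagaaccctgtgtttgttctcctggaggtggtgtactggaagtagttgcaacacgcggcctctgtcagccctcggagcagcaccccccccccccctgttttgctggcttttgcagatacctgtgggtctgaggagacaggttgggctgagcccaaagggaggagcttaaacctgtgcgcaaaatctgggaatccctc
Hc: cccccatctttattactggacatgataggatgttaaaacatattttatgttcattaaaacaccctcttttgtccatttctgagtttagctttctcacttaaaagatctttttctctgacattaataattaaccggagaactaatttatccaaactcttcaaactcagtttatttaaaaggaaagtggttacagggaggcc
Tfpi: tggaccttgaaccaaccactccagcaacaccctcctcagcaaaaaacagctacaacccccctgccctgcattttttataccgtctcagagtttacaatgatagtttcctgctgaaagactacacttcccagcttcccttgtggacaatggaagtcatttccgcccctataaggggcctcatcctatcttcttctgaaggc
In Fga the C/EBP match ended 128 bases before the start. In Fgb the C/EBP match ended 73 bases before the start and the STAT match 154 bases before it. The stretches shown of Fgg, Hc and Tfpi held neither pattern.

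Over all 31 genes with a promoter window, the C/EBP pattern was found in 9 (29%), namely C3, C9, Cpb2, F11, F9, Fga, Fgb, Klkb1 and Serpinc1, against 10.8% of the 32851 windows of all genes. The STAT pattern was found in 7 (22.6%), namely C8a, F9, Fga, Fgb, Masp2, Pros1 and Vtn, against 8.3%. An NF-kB pattern was found in 2 (6.45%), F2 and Tfpi, against 4.59%. The HNF4 letters CAAAGTCC were found in 0 windows of the genes against 1.42% of all windows, and the TATA box letters TATAAA in 5 (16.1%) against 13.6%. F9, Fga and Fgb were the genes with both C/EBP and STAT matches. Both strands were searched and a stretch could count for more than 1 pattern. The 31 genes were counted by gene, with a match in any of their 33 windows, and the background by window. The 2 shares are therefore not in the same unit. A match describes letters and is not a bound site.

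Relative to the reference RNA, 40 of the 41 genes were far higher in liver. Their mean log2 ratio in control animals ran from 2.05 for Pros1 and 2.05 for C6 to 8.53 ± 0.71 (SD, n = 16) for Cfi, the protease that cuts C3b and C4b, while Tfpi stood at -0.20 ± 0.19 (SD, n = 16). Fgg, the fibrinogen gamma chain, had a mean ratio of 7.92 ± 0.53 (SD, n = 15) and C4bp, the C4b binding protein that acts with Cfi, one of 8.18 ± 0.54 (SD, n = 16). For the dimmest genes the Cy3 side of the ratio was near its lower limit, since the reference was well above background on 3 of 30 arrays for C9, 11 for Serpina10, 12 for Klkb1 and 20 for F13b. Cy5 was not saturated for any of the 41 on any array. Cy5 was well above background on 28 or more arrays for 40 genes and on 22 for Tfpi. Because ratios of different probes are not levels of RNA, the genes are not ranked against each other here.

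In the comparison of all exposed with all control animals, none of the 41 genes passed an adjusted p of 0.05 in limma's moderated test. Over all 23607 tested probes, 4 passed (0.0169%). The count of the 41 genes at an unadjusted p under 0.05 was also 0, whereas 12.2% of all probes were below that value. Of the 41 differences, 12 were above 0 and 29 below, with a median of -0.05, and the median of all 12188 named genes was 0.00 with 49.5% above 0. The lowest difference was -0.22 for Serpinc1, antithrombin, and the highest was 0.37 for C9, the pore-forming terminal component. The 95% confidence intervals of all 41 differences lay within 1 on the log2 scale, a 2-fold difference, and those of 39 lay within a 1.5-fold difference. The other two were C9, whose interval reached a ratio of 1.75, and Serpina10, whose interval reached 1.52. These bounds are for the ratio of liver over reference, and those for the liver channel alone are given below. The ratio bounds hold for the normalization used here: with the scanner software's processed signals the C9 difference was 0.86 (adjusted p = 0.21), above its interval. The smallest adjusted p was 0.50, for C3. The standard error of a difference had a median of 0.14 over the 41 genes and of 0.06 over all named genes.

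**Figure D1:**
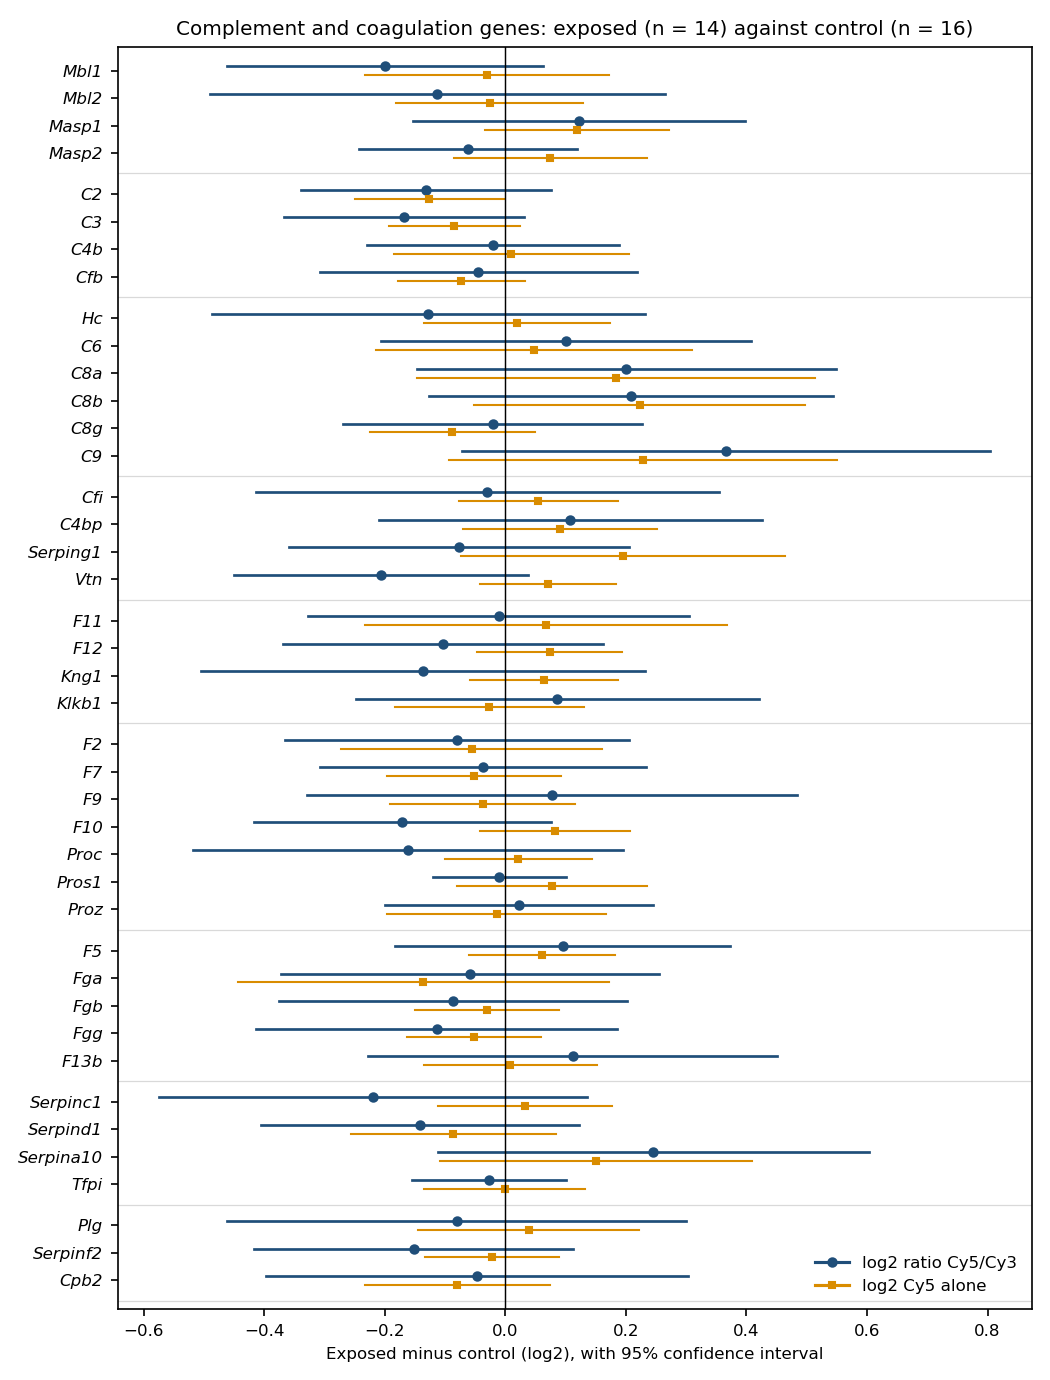
Difference between exposed (n = 14) and control (n = 16) animals for each of the 41 genes, grouped by role, in log2 units on the horizontal axis with bars for the 95% confidence interval. Circles are the log2 ratio of liver over reference and squares the log2 Cy5 signal alone. All 41 ratio intervals and 40 of 41 Cy5 intervals include 0, and the widest interval is that of C9 (-0.07 to 0.80).

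The lectin pathway starts with mannose-binding lectins and their proteases. Mbl1, mannose-binding lectin A, had a lowest, median and highest log2 ratio of 4.75, 5.43 and 6.20 in control animals and of 4.04, 5.27 and 5.77 in exposed animals. The groups overlapped over most of their range, and the lowest value belonged to an exposed animal of run 2. The difference was -0.20 ± 0.13 (SE), with an adjusted p of 0.55 in limma, and it was above 0 on 2 of the 7 slides that held both groups. Mbl2 differed by -0.11 ± 0.19 (SE), the protease gene Masp1 by 0.12 ± 0.14 (SE) and Masp2 by -0.06 ± 0.09 (SE). The 3 probes of Masp2 disagreed in sign, at -0.06, 0.10 and 0.23, and none of them passed the test.

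C2, C3, C4b and Cfb encode the parts of the enzymes that split C3 and C5. All of their differences were below 0, between -0.17 for C3 and -0.02 for C4b, and none passed the test. C3 had a lowest, median and highest log2 ratio of 4.48, 5.07 and 5.64 in control animals and of 4.53, 4.83 and 5.59 in exposed animals. Its difference was -0.17 ± 0.10 (SE), it was above 0 on 1 of 7 slides, and the second C3 probe gave 0.00 ± 0.12 (SE). C4b ranged from 4.86 to 6.02 with a median of 5.35 in control animals and from 4.89 to 6.11 with a median of 5.34 in exposed animals, so the groups coincided. The C4b probe may also bind RNA of the near-identical C4a, and the 2 cannot be separated here. Factor B, the protease of the alternative pathway and an acute phase protein, differed by -0.05 ± 0.13 (SE), and C2 by -0.13 ± 0.10 (SE).

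Among the terminal components, which build the membrane attack complex, the median difference was 0.15, and 4 of 6 were above 0. C9 had a lowest, median and highest log2 ratio of 2.45, 4.35 and 5.19 in control animals and of 2.88, 4.63 and 5.30 in exposed animals. Its difference was 0.37 ± 0.22 (SE), a ratio of 1.29 with an interval from 0.95 to 1.75, with an adjusted p of 0.51. The groups overlapped, and the difference was above 0 on 4 of 7 slides. C8a differed by 0.20 ± 0.17 (SE), C8b by 0.21 ± 0.17 (SE) and C8g, whose product is a lipocalin bound to the C8 alpha chain, by -0.02 ± 0.12 (SE). C6 ranged from 1.0004 to 2.97 with a median of 1.97 in control animals and from 1.62 to 2.74 with a median of 2.03 in exposed animals. Hc, whose promoter is shown above, differed by -0.13 ± 0.18 (SE, n = 14 and 14 animals with a value).

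The inhibitors of complement were Vtn, Serping1, Cfi and C4bp. Vtn, vitronectin, which blocks insertion of the terminal complex, ranged from 4.44 to 5.88 with a median of 5.14 in control animals. In exposed animals it ranged from 4.21 to 5.55 with a median of 4.91. The difference was -0.21 ± 0.12 (SE), with an adjusted p of 0.50, and it was above 0 on 2 of 7 slides. Serping1, the C1 inhibitor, which also restrains the contact system, had a lowest, median and highest log2 ratio of 4.32, 5.15 and 5.93 in control animals and of 4.17, 5.10 and 5.58 in exposed animals. Cfi and C4bp differed by -0.03 ± 0.19 (SE) and 0.11 ± 0.16 (SE).

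The contact system links factor XII, prekallikrein, factor XI and kininogen. F12 had a lowest, median and highest log2 ratio of 4.85, 5.55 and 6.66 in control animals and of 4.65, 5.50 and 5.92 in exposed animals. Klkb1, prekallikrein, ranged from 3.80 to 5.31 with a median of 4.90 in control animals and from 3.35 to 5.57 with a median of 5.00 in exposed animals. Neither gene separated the groups, with differences of -0.10 ± 0.13 (SE) for F12 and 0.09 ± 0.16 (SE) for Klkb1. F11 differed by -0.01 ± 0.16 (SE) and Kng1 by -0.14 ± 0.18 (SE), where the Kng1 probes may also bind RNA of its near-identical copy Kng2.

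The vitamin K dependent proteins were the clotting proteases F2 (prothrombin), F7, F9 and F10 and the anticoagulants Proc, Pros1 and Proz. Their differences lay between -0.17 for F10 and 0.08 for F9 with a median of -0.04. F10 had a lowest, median and highest log2 ratio of 3.82, 4.42 and 5.43 in control animals and of 3.83, 4.31 and 4.80 in exposed animals, which overlapped. Pros1, protein S, the cofactor of activated protein C, had the narrowest spread of the 41 genes. It ranged from 1.82 to 2.47 with a median of 2.05 in control animals and from 1.79 to 2.29 with a median of 2.06 in exposed animals. The Pros1 difference was -0.01 ± 0.05 (SE), and its second probe gave 0.07 ± 0.07 (SE).

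The fibrinogen chains did not differ between the groups beyond their spread. Fgg had a lowest, median and highest log2 ratio of 7.10, 7.84 and 9.06 in control animals and of 7.04, 7.87 and 8.50 in exposed animals. Its difference was -0.11 ± 0.15 (SE, adjusted p = 0.81), beside -0.09 ± 0.14 (SE) for Fgb and -0.06 ± 0.15 (SE) for Fga. As ratios these were 0.92, 0.94 and 0.96, with intervals from 0.75 to 1.14 for Fgg. F13b, the carrier subunit of factor XIII, which crosslinks fibrin, ranged from 5.29 to 6.90 with a median of 6.38 in control animals and from 4.96 to 6.99 with a median of 6.52 in exposed animals. F5, the cofactor of factor X, differed by 0.09 ± 0.14 (SE).

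Of the anticoagulants, Serpina10, the protein Z dependent inhibitor of factor X, ranged from 3.47 to 5.17 with a median of 4.24 in control animals. In exposed animals its values ranged from 2.97 to 5.06 with a median of 4.67, and the lowest of all 30 was an exposed animal. Its difference was 0.25 ± 0.18 (SE), with an adjusted p of 0.61. Serpinc1 differed by -0.22 ± 0.17 (SE) and its second probe by -0.04 ± 0.13 (SE), and Serpind1, heparin cofactor II, by -0.14 ± 0.13 (SE). Tfpi had a lowest, median and highest log2 ratio of -0.54, -0.17 and 0.15 in control animals and of -0.52, -0.20 and 0.01 in exposed animals, a difference of -0.03 ± 0.06 (SE).

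Fibrinolysis was represented by Plg, plasminogen, and by its inhibitor Serpinf2 and the carboxypeptidase Cpb2, which slows clot lysis. Serpinf2 ranged from 4.58 to 6.31 with a median of 5.10 in control animals and from 4.38 to 5.56 with a median of 5.12 in exposed animals. Cpb2 had a lowest, median and highest log2 ratio of 4.35, 4.99 and 6.23 in control animals and of 3.87, 5.09 and 6.03 in exposed animals. The differences were -0.15 ± 0.13 (SE), -0.05 ± 0.17 (SE) and, for Plg, -0.08 ± 0.19 (SE), and none passed the test.

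A second question was whether the exposed runs differed among themselves, as 976 of all 23607 probes (4.13%) did in limma's moderated F test. Run and array position moved together. All 4 arrays of exposed run 1 lay in position 3 of their slide, those of exposed run 2 in position 3 (2 arrays) or 4 (3 arrays), and all 5 of exposed run 3 in position 4. Control run 1 lay in position 1 (6 arrays), control run 2 in position 1 (2 arrays) or 2 (3 arrays), and control run 3 in position 2 (5 arrays). A term for position, which set positions 1 and 3 against 2 and 4, was added in a further fit. No such term can separate exposure from the place on the slide, since all control arrays lay in positions 1 and 2 and all exposed arrays in 3 and 4. Within each group only run 2 held both codes, so the term largely overlaps with run. A call lost with it can reflect lower precision, and does not tell run from position. With position as a term the count of probes among exposed runs was 164. It was 167 with slide as a fixed block and 419 without exposed animal 176. None of the 41 genes passed that test in any of these fits. The unadjusted p was under 0.05 for 3 of the 41, Klkb1, F11 and Pros1, against 19.5% of all probes, and the smallest adjusted p was 0.17 for Klkb1, or 0.70 for the same gene with position as a term. Among the control runs the count was also 0, with 3 at an unadjusted p under 0.05 against 7.03% of all probes, and 0.089% of all probes passed. The smallest adjusted p there was 0.59, for Serpina10. Klkb1 averaged 4.39 ± 0.72 (SD, n = 4), 5.02 ± 0.40 (SD, n = 5) and 5.17 ± 0.17 (SD, n = 5) in exposed runs 1, 2 and 3. The F11 means were 5.16 ± 0.60, 5.66 ± 0.36 and 5.80 ± 0.26 (SD) in the same order. Pros1 averaged 2.18 ± 0.10, 1.97 ± 0.14 and 1.98 ± 0.08 (SD). The animals of exposed runs 1 and 3 did not overlap for Klkb1, which was lower in run 1, nor for Pros1, which was higher there, while the other run pairs of both genes overlapped. Both genes were looked at for their small p and neither passed the F test (adjusted p = 0.17 and 0.24). The share of all probes separated in this way was not counted, so the separation is a description.

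Each exposed run was also set against the mean of the 3 control runs, so these comparisons share their controls. For exposed run 1, 4.8% of all probes (1132) passed an adjusted p of 0.05 in limma and none of the 41 genes did, with 0 at an unadjusted p under 0.05 against 18.7% of all probes. With position as a term 288 probes and 0 of the 41 passed. The differences ran from -0.45 ± 0.23 (SE) for F11 to 0.37 ± 0.26 (SE) for C8a, with a median of 0.01 beside -0.04 for all named genes. The smallest adjusted p was 0.28, for F11. For exposed run 2, 0.0169% of all probes and 0 of the 41 passed, and the 1 gene at an unadjusted p under 0.05, against 10.3% of all probes, was Mbl1, at -0.41. Its median over the 41 was -0.16 beside 0.03 for all named genes. For exposed run 3, 0.131% of all probes and 0 of the 41 passed, with 0 at an unadjusted p under 0.05 against 13.1% of all probes, and the median was -0.04 beside 0.00 for all named genes. Against control run 1 alone, exposed run 1 differed in 0.246% of all probes and in 0 of the 41 genes, with a median of 0.05 and 0 at an unadjusted p under 0.05 against 11.8% of all probes. These 2 runs only come first in the numbering of their groups, and no label ties them, so this is not a matched control.

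**Figure D2:**
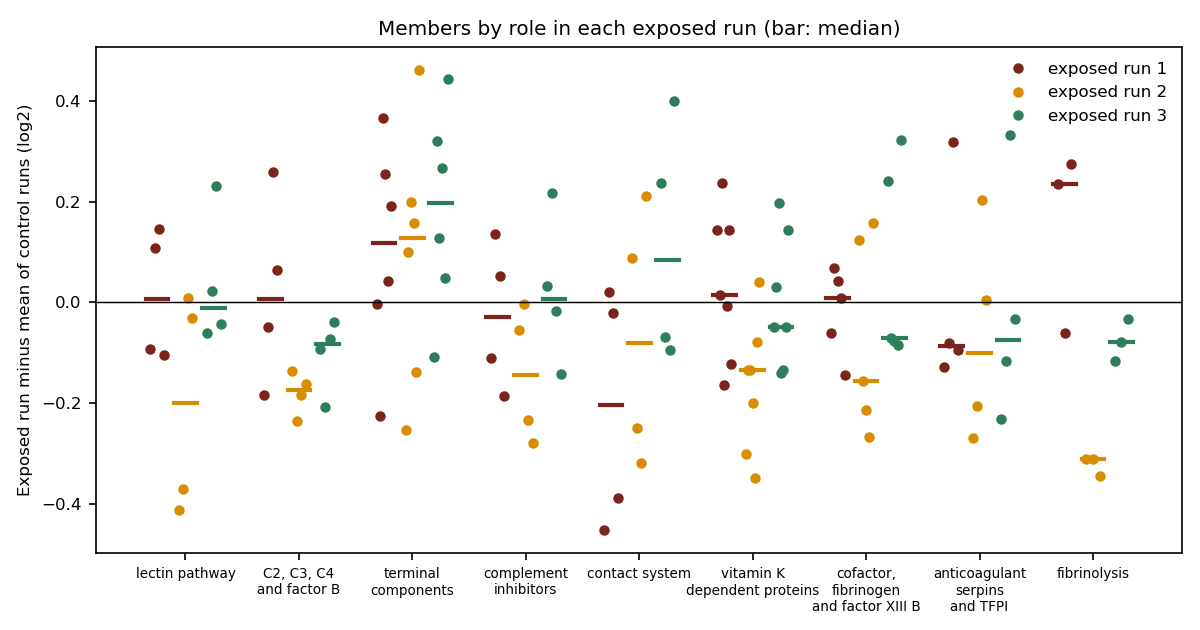
Difference of each exposed run from the mean of the control runs in log2 units on the vertical axis, with 1 point per gene and a bar for the median, by role on the horizontal axis. The terminal components have medians of 0.12, 0.13 and 0.20 in exposed runs 1, 2 and 3, and the fibrinolysis genes have medians of 0.24, -0.31 and -0.08.

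By role, the medians of these uncalled differences are descriptions, and the differences between runs were not tested by role. The terminal components had ratio medians of 0.12, 0.13 and 0.20 in exposed runs 1, 2 and 3, and medians of 0.35, 0.02 and 0.05 in log2 Cy5, the liver channel alone. The fibrinolysis genes stood at 0.24, -0.31 and -0.08 in the ratio and at 0.02, -0.09 and 0.04 in Cy5 alone. The contact system stood at -0.20, -0.08 and 0.08 in the ratio and at -0.02, 0.03 and 0.08 in Cy5 alone. C2, C3, C4b and Cfb had ratio medians of 0.01, -0.17 and -0.08 and Cy5 medians of -0.07, -0.10 and -0.07.

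**Figure D3:**
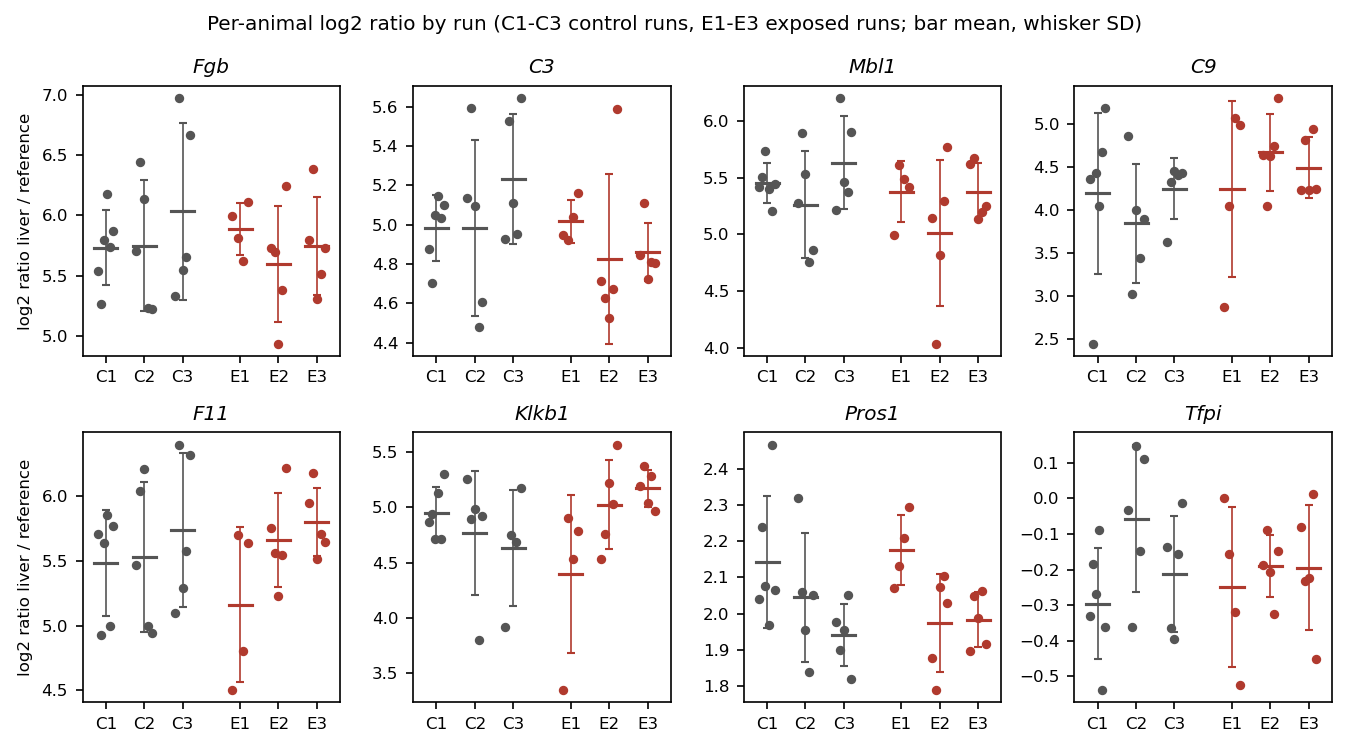
Log2 ratio of liver over reference on the vertical axis for 8 of the genes, with 1 point per animal, the mean as a bar and the SD as a whisker, for control runs C1 to C3 and exposed runs E1 to E3. Control and exposed animals overlap for every gene shown. The lowest Klkb1 value, 3.35, lies in exposed run 1, and 1 animal of exposed run 2 has C3 at 5.59 while the others of that run lie between 4.53 and 4.72.

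In the ratio, the spread between arrays was larger for these genes than for most others, but in Cy5 alone it was not. Among control animals the SD of the log2 ratio had a median of 0.50 over the 41 genes, from 0.17 for Pros1 to 0.73 for F9, and a median of 0.18 over all named genes tested, and 40 of the 41 lay above that. The 2 dyes contributed unequally. The SD of log2 Cy5, the liver RNA, had a median of 0.24 over the 41 genes and of 0.26 over all named genes, and 14 of the 41 lay above that. The SD of log2 Cy3, the reference RNA that is the same on every array, had a median of 0.44 over the 41 and of 0.22 over all named genes. In ratios from the deposited value table the SD had a median of 0.50 over the 41 genes, and in ratios of the scanner software's processed signals one of 0.73.

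**Figure D4:**
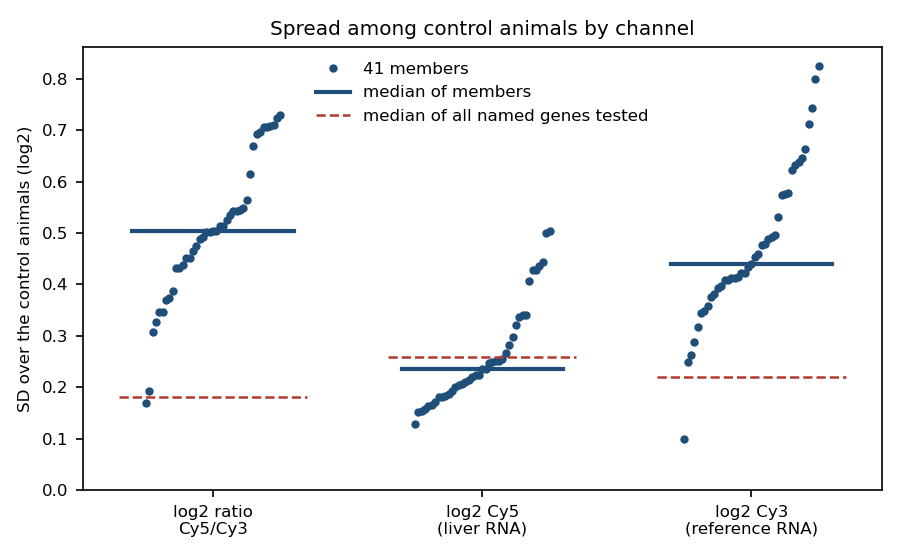
SD over the control animals in log2 units on the vertical axis, with 1 point per gene, for the log2 ratio, log2 Cy5 (liver RNA) and log2 Cy3 (reference RNA). Solid bars are medians of the 41 genes (0.50, 0.24 and 0.44) and dashed lines medians of all named genes tested (0.18, 0.26 and 0.22).

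In the ratio, the levels of the 41 genes moved together from array to array, and in Cy5 alone they did so far less. The median over the 41 genes, relative to the control mean of each gene, lay between -0.70 and 0.75 across the 30 animals in the ratio, and between -0.16 and 0.19 in Cy5 alone. Its mean was 0.00 ± 0.42 (SD) in control and -0.04 ± 0.29 (SD) in exposed animals. Slide accounted for 70.8% of the variance of this level in the ratio, for 51.7% in Cy5 alone and for 65.2% in Cy3 alone. These shares are not adjusted for fitting 9 slide means to 30 animals, so part of each would arise without any slide effect. On slide 3, which held 2 control animals, the level averaged 0.63, while its Cy3 counterpart averaged -0.48. On slide 7, with 2 control animals and 1 exposed animal, the averages were -0.41 in the ratio and 0.33 in Cy3. Within the 7 slides that held both groups, exposed minus control of this level ran from -0.48 to 0.25 and was above 0 on 4. Across the 820 pairs of the 41 genes, the correlation over the 30 animals had a median of 0.66 in the ratio and of 0.12 in Cy5 alone, and the pairs share arrays and reference. For the fibrinogen chains, whose promoters are printed above, the ratio gave 0.83 for Fga with Fgb, 0.83 for Fga with Fgg and 0.89 for Fgb with Fgg. In Cy5 alone the same pairs gave 0.46, 0.45 and 0.42. The part of slide and reference in the differences above was not tested beyond the fits with slide as a block and those on Cy5 alone.

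**Figure D5:**
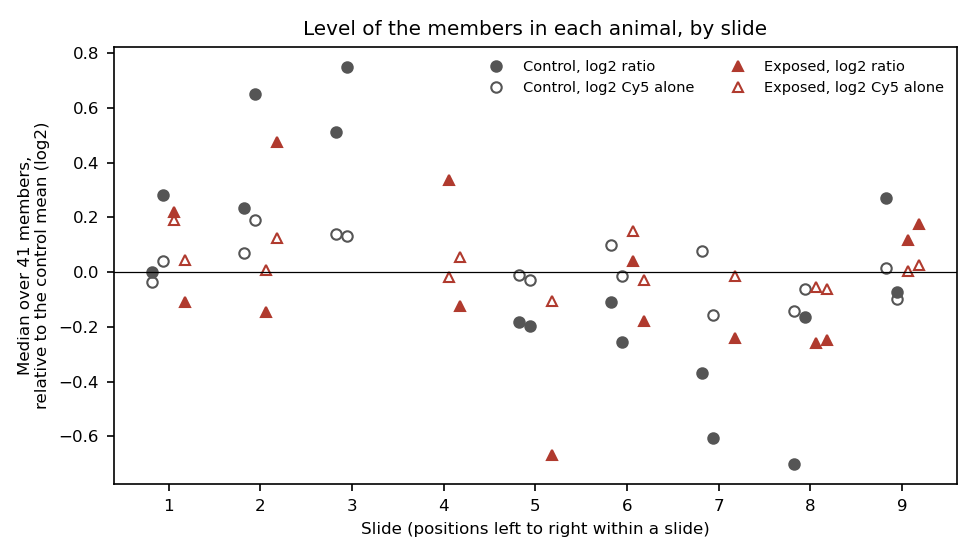
Median of the 41 genes in each animal relative to the control mean, in log2 units on the vertical axis, by slide on the horizontal axis, for the log2 ratio (filled) and log2 Cy5 alone (open), control as circles and exposed as triangles. Ratio levels span -0.70 to 0.75 and Cy5 levels span -0.16 to 0.19. Ratio levels differ between slides but also spread within them, as on slide 2 from -0.15 to 0.65.

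The comparisons were repeated on log2 Cy5 alone, a choice made after the spread of the reference channel had been seen. Between all exposed and control animals 0 of the 41 genes passed, beside 0.00847% of all probes, and 1 of the 41 was at an unadjusted p under 0.05 against 9.75% of all probes, C2 at -0.13 ± 0.06 (SE). The differences lay between -0.14 for Fga and 0.23 for C9 with a median of 0.02, and all 41 intervals lay within a 1.5-fold difference. Of the 41 genes, 17 had opposite signs in Cy5 alone and in the ratio.

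In exposed run 1 against the control runs, 3 of the 41 genes passed in Cy5 alone, beside 3.66% of all probes, and all 3 were higher in that run. The count at an unadjusted p under 0.05 was 9 of the 41 against 16.8% of all probes. C8a, the alpha chain of the terminal component C8, had a log2 Cy5 of 13.43 ± 0.44 (SD, n = 4) in exposed run 1. In control runs 1, 2 and 3 it stood at 13.11 ± 0.40 (SD, n = 6), 12.58 ± 0.24 (SD, n = 5) and 12.41 ± 0.28 (SD, n = 5), and in exposed runs 2 and 3 at 12.80 ± 0.24 and 12.60 ± 0.51 (SD). The values of exposed run 1, from 12.97 to 13.93, overlapped those of control run 1, from 12.71 to 13.67, and lay above all those of control runs 2 and 3. The share of all probes separated in this way was not counted, so this is a description of C8a. Its difference from the mean of the control runs was 0.78, with an adjusted p of 0.015. Serpina10 had a difference of 0.54 (adjusted p = 0.035), with 10.98 ± 0.48 (SD) in exposed run 1 and 10.87 ± 0.38, 10.27 ± 0.09 and 10.16 ± 0.38 (SD) in the control runs. Masp1 had a difference of 0.38 (adjusted p = 0.034), with 12.85 ± 0.11 (SD) in exposed run 1 beside 12.56 ± 0.24, 12.39 ± 0.23 and 12.43 ± 0.20 (SD) in the control runs. Against control run 1 alone, none of the 41 passed in Cy5, beside 0.428% of all probes, with 6 at an unadjusted p under 0.05 against 12.4% of all probes.

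These calls rested on few animals, and whether a gene passed changed with the terms for position and slide. The differences of C8a and Serpina10 themselves changed little. With array position as a term, 1 of the 41 passed in Cy5 alone in exposed run 1, Masp1 at 0.48 (adjusted p = 0.046), beside C8a at 0.79 (adjusted p = 0.081) and Serpina10 at 0.53 (adjusted p = 0.15). Of all 23607 probes, 442 passed with that term and 865 without it. In a fit with slide as fixed rather than random, 0 of the 41 passed, beside 410 of all 23607 probes. The differences there were 0.84 for C8a, 0.37 for Masp1 and 0.51 for Serpina10, with adjusted p of 0.051, 0.13 and 0.10. Both fits were chosen after the calls had been seen. In the same Cy5 comparison the neutrophil marker S100a9 rose by 0.95 (adjusted p = 0.044) and the lymphocyte marker Ms4a1 fell by 0.56 (adjusted p = 0.024), and the part of such cells in the 3 calls was not tested. With position as a term the adjusted p was 0.16 for S100a9 and 0.043 for Ms4a1, and with slide fitted as fixed it was 0.057 and 0.099. With each animal left out in turn, C8a passed in 28 of 30 fits and not without animals 179 or 180 of exposed run 1. Masp1 passed in 26 of 30 and not without 177, 179, 180 or control animal 599, and Serpina10 in 25 of 30 and not without 177, 179, 180 or control animals 550 or 575. Control animal 548 held the lowest Cy5 of all animals for 13 of the 41 genes and the highest for 7. Without it, 5 of the 41 passed, with C8b higher and F11 lower in exposed run 1 besides the other 3. Over all 23607 probes the count without animal 548 was 1254, beside 865 with all animals. In the ratio, Serpina10 passed in exposed run 1 only when exposed animal 176 was left out, at 0.84 with an adjusted p of 0.014.

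In exposed runs 2 and 3, 0 of the 41 genes passed in Cy5 alone, beside 0.0127% and 0.00847% of all probes, with 0 and 2 at an unadjusted p under 0.05 against 4.8% and 7.79% of all probes. Among the exposed runs, 1 of the 41 genes passed the F test in Cy5 alone, beside 1.68% of all probes. F11, factor XI, had a log2 Cy5 of 12.17 ± 0.64 (SD, n = 4), 13.01 ± 0.11 (SD, n = 5) and 13.05 ± 0.20 (SD, n = 5) in exposed runs 1, 2 and 3, with an adjusted p of 0.036. The 4 values of run 1, from 11.24 to 12.60, lay below all those of the other exposed runs, and within or below those of control run 1, from 11.82 to 13.16. F11 was looked at for its small p, and the share of all probes separated in this way was not counted. It passed in 20 of the 30 fits with 1 animal left out, and neither with position as a term (adjusted p = 0.19) nor with slide fitted as fixed (adjusted p = 0.10). Among the control runs 0 of the 41 passed in Cy5 alone, beside 0.11% of all probes, with 4 at an unadjusted p under 0.05 against 8.51% of all probes.

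As a background, the Cy3 signal of the reference RNA was compared between the arrays of both groups. Every control array lay in position 1 or 2 of its slide and every exposed array in position 3 or 4. None of the 41 genes and none of the 23607 probes (0%) passed there, with 1 of the 41 and 5.46% of all probes at an unadjusted p under 0.05. The Cy3 differences of the 41 genes nevertheless ran from -0.13 to 0.28 with a median of 0.04. Vtn, for example, differed by 0.28 in Cy3, by 0.07 in Cy5 and by -0.21 in the ratio, and C9 by -0.13, 0.23 and 0.37. The Cy3 test was run for the whole groups only, not for exposed run 1. In that run C8a stood at 0.78 in Cy5 and 0.37 in the ratio. Masp1 stood at 0.38 and 0.15, and Serpina10 at 0.54 and 0.32. Across the 41 genes the ratio difference correlated with brightness at -0.64 for all exposed animals, 0.06 for exposed run 1, -0.70 for exposed run 2 and -0.67 for exposed run 3, against -0.06, -0.15, -0.05 and 0.09 across all named genes. In Cy5 alone the value across the 41 was -0.30 for all exposed animals. Genes of 1 array share its dye and reference, and these are descriptions.

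Other genes of the same cascades, from lists of genes that are not among the 41, moved little between the groups. Of 35 further complement genes 25 were tested and 0 passed in exposed against control, with a median of -0.01. The only one to pass in exposed run 1 was Cfp, properdin, a stabiliser of the alternative pathway made by leukocytes, which fell by 0.49 ± 0.13 (SE, adjusted p = 0.031), and the list median was -0.14. Cfp did not pass in Cy5 alone, at -0.28 (adjusted p = 0.63), nor in the ratio against control run 1 alone, at -0.27 (adjusted p = 0.51), nor with position as a term (adjusted p = 0.15). The C1q genes, made by macrophages, did not pass, at -0.38 ± 0.20 (SE) for C1qa, 0.00 ± 0.25 (SE) for C1qb and -0.14 ± 0.16 (SE) for C1qc in that run. Of 41 further coagulation and fibrinolysis genes 29 were tested and 0 passed in exposed against control, with a median of 0.00. Of the 29, 2 passed in exposed run 1, beside 4.8% of all probes. F2r, the thrombin receptor PAR1, fell by 0.36 ± 0.10 (SE, adjusted p = 0.037), and Serpina3n, an acute phase protease inhibitor, rose by 0.64 ± 0.16 (SE, adjusted p = 0.021). With position as a term neither passed in the ratio (adjusted p = 0.30 and 0.12). In Cy5 alone F2r stood at -0.41 (adjusted p = 0.058) and Serpina3n rose by 1.58 (adjusted p = 1.90e-05). Serpina3n also passed in Cy5 alone with position as a term (adjusted p = 0.0014) and with slide fitted as fixed (adjusted p = 0.0013). Hrg, histidine-rich glycoprotein of plasma, rose by 0.59 (adjusted p = 0.016) and Thbd, thrombomodulin of endothelium, fell by 0.76 (adjusted p = 0.024) in Cy5 alone, beside ratio differences of 0.19 and -0.16 that did not pass. Neither passed in Cy5 alone with position as a term (adjusted p = 0.16 and 0.13) or against control run 1 alone (adjusted p = 0.24 and 0.16). With slide fitted as fixed, Hrg passed in Cy5 alone, at 0.63 (adjusted p = 0.016), and Thbd did not (adjusted p = 0.064). F3, tissue factor, and F8 had differences of 0.02 and -0.04 there and did not pass.

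Regulators of these genes were examined in the same way, and 20 of 21 were tested. In exposed against control 0 passed, with a median of 0.08. Hnf4a differed by 0.08 ± 0.15 (SE). Cebpb, a mediator of interleukin 6 signals, had a difference of 0.67 ± 0.16 (SE) with an adjusted p of 0.12. Stat3 and its inhibitor Socs3 differed by -0.05 ± 0.11 and 0.12 ± 0.10 (SE). Foxa3, a hepatocyte factor, differed among the exposed runs (adjusted p = 0.032 in limma's F test), at 2.74 ± 0.40, 3.90 ± 0.39 and 3.71 ± 0.33 (SD) in runs 1, 2 and 3. It did not pass that test in Cy5 alone (adjusted p = 0.10) or with position as a term (adjusted p = 0.20).

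A further list held 19 acute phase proteins of plasma that are not among the 41, of which Serpina3n is also in the coagulation list above. All 19 were tested. In exposed against control 0 passed in the ratio, with a median of 0.005, and 0 in Cy5 alone. In exposed runs 2 and 3, 0 passed in the ratio or in Cy5 alone. In exposed run 1, 3 of the 19 rose in the ratio, beside 4.8% of all probes that passed. These were Saa3 by 2.95 ± 0.48 (SE), Lcn2 by 3.02 ± 0.38 (SE) and Serpina3n. With position as a term Saa3 and Lcn2 passed there too, at 3.16 and 2.96 (adjusted p = 0.0058 and 0.0019). Set against control run 1 alone, 1 of the 19 passed in the ratio, Lcn2 with a difference of 2.03 (adjusted p = 0.037), beside 0.246% of all probes. The differences of Saa3 and Serpina3n were 2.08 and 0.41 there, with adjusted p of 0.10 and 0.39. In Cy5 alone 9 of the 19 passed in exposed run 1 against the control runs, beside 3.66% of all probes. Against control run 1 alone 3 passed, Saa4, Lcn2 and Serpina3n, beside 0.428% of all probes. All 9 were higher in exposed run 1, namely these 3 with Saa1, Saa2, Saa3, Orm2, Hp and Itih3. The channel and the ratio differed widely for some of them. Saa1 stood at 3.54 in Cy5 and 0.69 in the ratio, and Saa2 at 3.16 in Cy5 and -0.49 in the ratio, where neither passed (adjusted p = 0.092 and 0.061). Saa4, Orm2, Hp and Itih3 had Cy5 differences between 0.55 for Itih3 and 0.84 for Saa4, and ratio differences between 0.07 and 0.19 that did not pass. The ratio is log2 Cy5 minus log2 Cy3, so these gaps lie in the Cy3 signal. That signal comes from reference RNA that was the same on every array. Cy3 was not compared for this run, and the source of the gaps was not tested. The probes of Saa1 and Saa2 may also bind RNA of each other, as the genes are near-identical copies. The Lcn2 log2 ratios of the 4 animals of exposed run 1 lay between 3.14 and 4.08. In control run 1, animals 551 and 549 had Lcn2 at 3.81 and 2.24, while the others lay between 0.46 and 1.21. Fga, Fgb and Fgg differed by 0.07 ± 0.24, 0.04 ± 0.23 and 0.01 ± 0.23 (SE) in exposed run 1, C3 by -0.05 ± 0.15 (SE) and Cfb by 0.06 ± 0.19 (SE), and none of these passed.

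Markers of other liver cells were checked for the same animals. In exposed against control 0 members of each of the 10 marker lists passed. The hepatocyte marker Ttr fell in exposed run 1 by 1.14 ± 0.25 (SE), 1 of 10 tested, beside a list median of 0.00, and Alb, at -0.10 ± 0.23 (SE), did not pass. Of 9 stellate cell markers 3 fell, Pdgfrb by 0.44, Col3a1 by 0.98 and Col1a1 by 0.61, of 12 endothelial markers 1 fell, Eng by 0.34, and of 6 bile duct markers 1 fell, Spp1 by 0.59. Over all probes 4.8% passed in that run. In Cy5 alone Ttr (-1.39), Col3a1 (-0.84) and Col1a1 (-0.72) passed, while Pdgfrb (-0.24), Eng (-0.20) and Spp1 (-0.47) did not. Of the 3 that passed, Ttr passed in Cy5 alone with position as a term too (adjusted p = 0.016), and Col3a1 and Col1a1 did not (adjusted p = 0.23 and 0.15). With position as a term none of these 6 passed in the ratio, with adjusted p between 0.084 for Ttr and 0.33 for Col1a1. With slide fitted as fixed, Ttr and Col3a1 passed in the ratio (adjusted p = 0.032 and 0.041) and the others did not. In Cy5 alone Ttr and Col1a1 passed in that fit (adjusted p = 0.0083 and 0.039), and Col3a1 did not (adjusted p = 0.13). Against control run 1 alone Col3a1 passed in the ratio, at -1.03 (adjusted p = 0.038), and the other 5 did not. In Cy5 alone Ttr and Col1a1 passed that comparison (adjusted p = 0.010 and 0.046), and Col3a1 did not (adjusted p = 0.14). None of the 10 Kupffer cell and macrophage markers passed in the ratio or in Cy5 alone, and neither did any platelet, red cell or pancreas marker. Of the 3 neutrophil markers tested S100a9 passed in Cy5 alone, as given above, but not in the ratio, at 0.65 (adjusted p = 0.27). Of the 7 lymphocyte markers tested Ms4a1 passed in Cy5 alone but not in the ratio, at -0.13 (adjusted p = 0.69). The mean log2 ratio of the Kupffer cell list was 3.47 ± 0.39 (SD) in control and 3.39 ± 0.28 (SD) in exposed animals, with ranges from 2.812 to 3.971 and from 2.853 to 4.003. The part of cell composition in the values of the 41 genes was not tested.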

How the data were processed

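The scanner files deposited by the authors give Cy5 and Cy3 intensity per spot in arbitrary units, extracted with Agilent Feature Extraction 10.7.3.1 (25 arrays) or 10.1.1.1 (5 arrays), per the file headers. A second file deposited by the authors holds log2 ratios of Cy5 over Cy3, as checked on 7340 bright spots (r from 0.973 to 0.985, slopes from 0.896 to 0.939, own array best in 30 of 30). Its column medians lay between -0.05 and -0.02, and how it was centred is not given in the sources used here.

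Here, median foregrounds were corrected by normexp (offset 50) and loess within arrays, giving no weight to control spots (R 4.3.3 with limma 3.58.1 and data.table version 1.17.8). Outlier spots became missing (1008 probe values). Tested probes (23607 of 41174) had Cy5 flagged by the scanner software as well above background on 14 or more arrays, and the brightest stood for its gene. A gene's name came from the RefSeq table of GRCm38.p6 (24375 probes with a symbol, 6534 tested without). The 2 design versions differed in 3169 spot names. Two-sided moderated tests of limma used slide (9 slides, 6 scan days) as a random block (correlation 0.16 for 2 groups, 0.15 for 6 runs) and Benjamini-Hochberg adjustment over all tested probes. Cy5 and Cy3 alone were taken after loess and Aquantile. A missing spot value was left out of a fit, not imputed (2 control animals for Hc and 1 for F2, Fgg, Mbl2, F5 and Klkb1). Scripts were tested on simulated data.

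The genes, lists and tests were chosen with earlier results of these data known. Full values are given for the gene of each role with the smallest p between groups and the one with the smallest F test p among exposed runs. Listed genes outside the 41 are named where they passed a comparison, and position was coded as even or odd. Those that did not pass, and C8a, Masp1, Serpina10 and F11 in Cy5 alone, were picked after their values were seen. The labels give animals as samples, and nothing says whether any shared a cage or litter.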

Additional observations from a re-analysis of the deposited data

Results flagged for a closer look

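In 108 runs of 4 to 6 animals (each gene described in full, and the level over the 41 genes, in each of the 6 runs), 7 had an animal separated from the others by more of the run's range than Dixon's 95% limit allows. Chance alone gives about 1 in 20. In exposed run 1, animal 176 had Serpina10 at 2.97 while the others lay between 4.90 and 5.06 (gap 0.924 of the range), and F13b at 4.96 while the others lay between 6.51 and 6.66 (gap 0.908). The same animal had the lowest ratio of all 30 for 5 of the 41 genes, F11, F13b, F5, Klkb1 and Serpina10. In the same run animal 180 had C6 at 2.57 beside 1.62 to 1.69 (gap 0.928). In exposed run 2, animal 197 had C3 at 5.59 beside 4.53 to 4.72 (gap 0.821). In control run 2, animal 574 had Klkb1 at 3.80 beside 4.90 to 5.26 (gap 0.752). In control run 3, animal 595 had C9 at 3.63 beside 4.33 to 4.45 (gap 0.847), and animal 600 had Fgg at 9.06 beside 7.72 to 7.84 (gap 0.909, 4 animals with a value).

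Genes outside the 41 differed among the exposed runs in limma's F test. The adjusted p was 0.0122 for F2r, 0.0324 for Foxa3, 0.00115 for Saa3, 0.000107 for Lcn2, 0.00561 for Ttr, 0.0138 for Eng and 0.0152 for Col3a1. In Cy5 alone Saa3 (0.000576), Lcn2 (5.44e-05) and Ttr (0.000544) passed the same test, and F2r (0.0681), Foxa3 (0.105), Eng (0.392) and Col3a1 (0.0961) did not. With array position as a term in the ratio, Saa3 (0.0280) and Lcn2 (0.0144) passed, and F2r (0.102), Foxa3 (0.199), Ttr (0.119), Eng (0.195) and Col3a1 (0.0699) did not.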

How the results depend on the processing

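Between all exposed and control animals, among the control runs, in exposed runs 2 and 3, against control run 1 alone and in the reference channel, 0 of the 41 genes passed under every alternative that was run on the ratio or on Cy5 alone. Among the exposed runs the count was 1 with the scanner software's processed signals (Pros1) and 1 in Cy5 alone after either normalization (F11), but 0 there with array position as a term or slide as a fixed block; with 1 animal left out it ranged from 0 to 2. In exposed run 1 the count was 1 with processed signals (C9), 3 in Cy5 alone after loess and Aquantile, 2 after quantile normalization (C8a and Serpina10), 1 with array position as a term (Masp1) and 0 with slide as a fixed block; with 1 animal left out it ranged from 0 to 5, the ratio giving at most 1 (Serpina10, without animal 176). Over all probes in Cy5 alone, the calls in exposed run 1 moved from 865 to 442 with array position as a term and 410 with slide as a fixed block. The cause was not tested. In a fit of 6 run means, not counted above, Serpina10 passed between all animals without animal 176 (adjusted p = 0.0499). The median over the 41 genes between all animals ranged from -0.12 to 0.03 over 50 alternatives other than Cy5 with 1 animal left out. It ranged from -0.08 to 0.29 in exposed run 1, -0.37 to -0.02 in run 2, -0.20 to 0.14 in run 3 and -0.03 to 0.38 for run 1 against control run 1, and was -0.04 and -0.20 for runs 2 and 3 against the control run of the same order. Uncalled signs turned for 9 of 41 genes with processed signals, 6 with slide as a fixed block, 4 with median centring, 4 without the older software version and 17 in Cy5 alone. With Cy5 well above background required on all arrays, 34 of the 41 genes were left. The deposited table, the switch to Aquantile and Cy5 alone could not be applied to the reference channel, and leaving out exposed run 1 was run only for all animals. Over all probes in the ratio the calls among exposed runs moved from 976 to between 125 (median centring) and 1567 (array weights), in exposed run 1 from 1132 to between 174 (median centring) and 1983 (processed signals), or 58 against control run 1 alone, between all animals from 4 to between 0 and 143, in run 2 from 4 to between 0 and 93 and in run 3 from 31 to between 0 and 520. No paired analysis was possible because the groups share no replicate numbers; slide as a fixed block, which compares the groups within the 7 slides that held both, gave 0 of 41 (smallest adjusted p 0.308, Vtn). Signal over background limits the Cy3 side of C9, Serpina10, Klkb1 and F13b.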

Other observations

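A few arrays held most of the extreme ratios of the 41 genes. Exposed animal 195 had the lowest ratio of all 30 animals for 16 of the genes and control animal 574 for 10, and control animals 596 and 600 had the highest for 15 and 11. The Cy3 level over the 41 genes, relative to the control mean, was 0.51 for animal 195 and 0.57 for animal 574, and -0.65 for animal 596 and -0.55 for animal 600, while their Cy5 levels were -0.11, -0.14, 0.13 and 0.19. The part of the reference channel in these extremes was not tested.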
